A study of Homo sapiens with 18 samples.

Results

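The genes described here are the 7 inhibitors of cyclin-dependent kinases (CDKs) and the 3 D-type cyclins, which were chosen by symbol. All 10 were found among the 21944 genes analysed. All 10 were also among the 18672 genes listed at each of 3, 6 and 24 h. They were measured by bulk RNA sequencing of polyA RNA from pancreatic progenitors made from human embryonic stem cells and taken at day 19 of differentiation. The sample labels name HUES4 as the line, whereas the growth protocol and the paper name NGN3-GFP, an SA121-derived line that reports *NEUROG3*. In all 6 groups the cells were lifted with accutase and reseeded in coated wells, either on laminin-411 (LN411), a laminin isoform of low adhesion, or on fibronectin (FN), and were collected 3, 6 or 24 h later with 3 samples per group and 18 in all. Each group was therefore 1 differentiated stem cell line that had been dissociated, and no group of cells left in place was analysed here.

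The value analysed for each gene was its deposited mean normalized count, which pools both matrices and all 3 times. It was the same at each time, with a largest relative gap of 4.89e-07. No value of a single library entered, which leaves the levels below with no error and no number of replicates. The difference between LN411 and FN was not tested. The depth of single libraries is unknown, and the mean normalized counts of all genes sum to 53217583. Because a longer transcript gives more fragments, levels of different genes were compared as a mean normalized count per kilobase of the longest annotated transcript, with 3 other definitions of length as alternatives.

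The D-type cyclins bind CDK4 and CDK6 in G1, the phase before DNA is copied, and the active kinases phosphorylate the retinoblastoma protein and its relatives, which releases E2F factors. The inhibitors of the INK4 family (*CDKN2A* to *CDKN2D*) bind CDK4 and CDK6 themselves and keep the cyclins away. Those of the CIP/KIP family (*CDKN1A* to *CDKN1C*) bind complexes of cyclin and kinase, with CDK2 as a main target. In the developing pancreas, endocrine cells leave the cell cycle as they are specified from progenitors, and CIP/KIP inhibitors are known for a part in this exit.

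In the pooled progenitors, *CCND1* and *CDKN1A* had the highest levels per kilobase of the 10 genes, and the INK4 inhibitors were the lowest class in sum. Without division by length, *CCND2* (11473) was above *CDKN1A* (8326). Summed over each class, the level per kilobase was 12196 for the 3 D-type cyclins, 5479 for the 3 CIP/KIP inhibitors and 860.3 for the 4 INK4 inhibitors. The D-type cyclins were thus 2.23-fold above the CIP/KIP inhibitors and 14.2-fold above the INK4 inhibitors. With 4 definitions of gene length these ratios ran from 1.95 to 2.87 and from 13.6 to 17.4. A single gene led each class, namely *CCND1*, *CDKN1A* and *CDKN2B*. Without *CCND1* the D-type cyclins summed to 2067, which was 0.377 of the CIP/KIP level and 2.40-fold the INK4 level. Without *CDKN1A* the CIP/KIP inhibitors were 2.10-fold above the INK4 inhibitors, with a range from 1.78 to 2.63. The classes overlapped gene by gene, since *CDKN2B* lay above *CCND3* with each length, by 1.03-fold to 2.82-fold. Of the 10 genes, 9 lay above the median of the 21861 genes with a length, and *CDKN2C* lay below it. This number was 7 to 9 over the alternatives, because *CDKN2A* and *CDKN2D* changed side. It was 7 among protein-coding genes. The median level per kilobase was 536.6 for the 10 genes and 99.6 for all genes, which include genes that are not protein-coding. Among protein-coding genes alone, *CDKN2A* at 225.3 lay at the 46.3 percentile and *CCND3* at 391.8 at the 58.0 percentile. The median of protein-coding genes thus lay between these 2 levels. Together the 10 genes held 0.133% of all mean normalized counts.

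**Figure D1:**
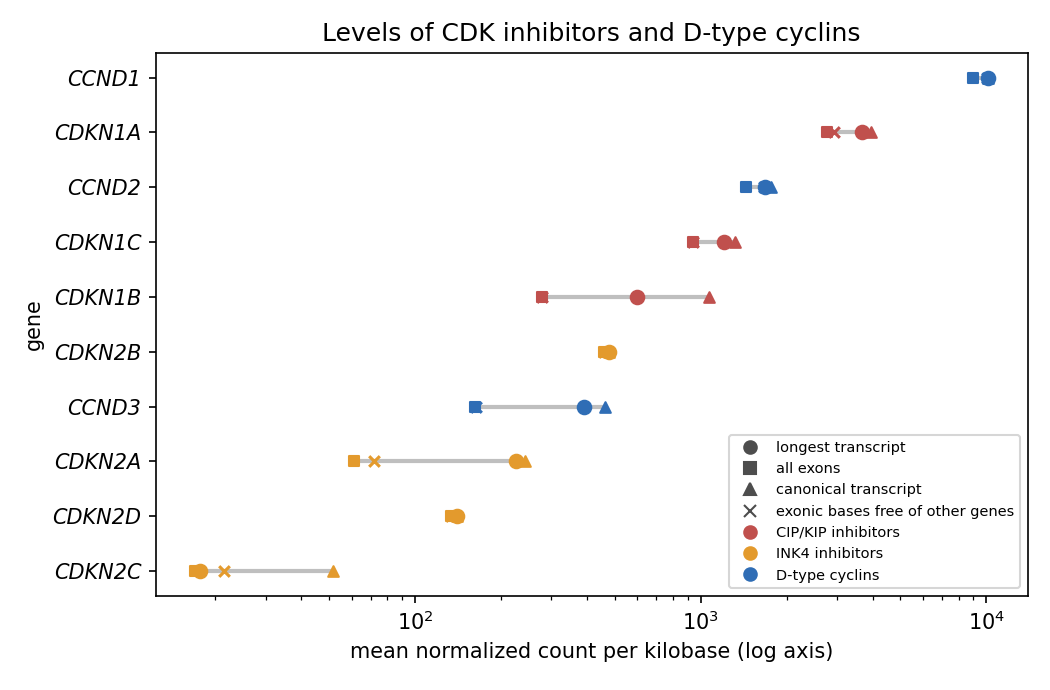
The horizontal log axis gives the mean normalized count per kilobase of each gene, with the genes from the highest (top) to the lowest, symbols for 4 definitions of gene length, colours for the 3 classes and a grey line over the range of the 4 values. *CCND1* is highest and *CDKN2C* lowest with each length, and the widest lines are those of *CDKN1B*, *CDKN2A*, *CDKN2C* and *CCND3*.

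*CCND1* (ENSG00000110092, chromosome 11 of GRCh38, 69641156 to 69654474, plus strand) encodes cyclin D1, the D-type cyclin that growth factors and adhesion induce in many cells. Its mean normalized count was 42926 and its level per kilobase 10129, the highest of the 10 genes. Of the 21861 genes, 21662 were below it, which placed it at the 99.1 percentile. *CCND2* (ENSG00000118971, chromosome 12, 4269771 to 4305353, plus strand), the gene of cyclin D2, which serves beta cell proliferation in the mouse, had a mean normalized count of 11473 and a level per kilobase of 1675. It lay at the 91.8 percentile. *CCND3* (ENSG00000112576, chromosome 6, 41934934 to 42050357, minus strand) encodes cyclin D3 and was the lowest of the class, with a mean normalized count of 937.9, a level per kilobase of 391.8 and a percentile of 69.8. Per kilobase, *CCND1* was 6.05-fold above *CCND2* and 25.9-fold above *CCND3*. The second ratio depended on the length used and ran from 21.9 to 61.6, since *CCND3* has 23 annotated transcripts with 5761 exonic bases, against 2394 in the longest. *CCND1* made up 83.1% of the class per kilobase, *CCND2* 13.7% and *CCND3* 3.21%.

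*CDKN1A* (ENSG00000124762, chromosome 6, 36676460 to 36687337, plus strand) encodes p21, which halts the cycle after DNA damage. With a mean normalized count of 8326 and a level per kilobase of 3673, it was the highest inhibitor and the second of the 10 genes, at the 96.7 percentile. *CDKN1C* (ENSG00000129757, chromosome 11, 2883213 to 2885775, minus strand) encodes p57, is imprinted and is expressed mainly from the maternal copy. Its mean normalized count was 2342 and its level per kilobase 1209, at the 88.1 percentile. *CDKN1B* (ENSG00000111276, chromosome 12, 12685498 to 12722369, plus strand) encodes p27, which is controlled to a large part by degradation of the protein. Its mean normalized count was 2588 and its level per kilobase 596.9, with a longest transcript of 4335 bases. *CDKN1B* lay at the 77.3 percentile. *CDKN1A* was 3.04-fold above *CDKN1C* and 6.15-fold above *CDKN1B* per kilobase, and it made up 67.0% of the class. The first ratio was steady over the 4 lengths, from 2.94 to 3.09, and the second ran from 3.66 to 10.4.

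The INK4 inhibitors spanned a wider range than the CIP/KIP inhibitors, with 26.9-fold between the highest and the lowest per kilobase against 6.15-fold. The 4 lengths gave spans of 9.20 to 26.9 for the INK4 and 3.66 to 10.4 for the CIP/KIP inhibitors, and the INK4 span was the wider one with each length. The D-type cyclins spanned 25.9-fold, with a range from 21.9 to 61.6. The INK4 span rested on *CDKN2C*, since with the longest transcript *CDKN2B* was 3.38-fold above *CDKN2D*, the next lowest. *CDKN2B* (ENSG00000147883, chromosome 9, 22002903 to 22009305, minus strand) encodes p15, which transforming growth factor beta induces in epithelial cells. It had a mean normalized count of 1835 and a level per kilobase of 476.3, at the 73.1 percentile, and made up 55.4% of the class. *CDKN2A* (ENSG00000147889, chromosome 9, 21967752 to 21995301, minus strand) lies 7601 bases away from *CDKN2B*. Its mean normalized count was 237.0 and its level per kilobase 225.3, at the 61.0 percentile. This gene encodes p16 and, from another first exon and reading frame, ARF, and the value per gene does not tell the transcripts of the pair apart. The sums given for the INK4 class therefore include any ARF transcripts. *CDKN2D* (ENSG00000129355, chromosome 19, 10566460 to 10569059, minus strand) encodes p19 and had a mean normalized count of 200.9 and a level per kilobase of 141.0, at the 54.4 percentile. *CDKN2C* (ENSG00000123080, chromosome 1, 50960745 to 50974634, plus strand) encodes p18. It was the lowest of the 10 genes, and its mean normalized count was 51.5, with a level per kilobase of 17.7 at the 26.8 percentile. *CDKN2B* was 2.11-fold above *CDKN2A*, 3.38-fold above *CDKN2D* and 26.9-fold above *CDKN2C*. Over the 4 lengths these ratios ran from 1.97 to 7.52, from 3.38 to 3.44 and from 9.20 to 26.9.

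The order of the 10 genes per kilobase was *CCND1*, *CDKN1A*, *CCND2*, *CDKN1C*, *CDKN1B*, *CDKN2B*, *CCND3*, *CDKN2A*, *CDKN2D* and *CDKN2C*. Of the 45 pairs, 2 changed their order with another gene length. *CDKN1B* was 1.25-fold above *CDKN2B*, and this ratio ran from 0.609 to 2.25 over the 4 lengths. *CDKN2A* was 1.60-fold above *CDKN2D*, with a range from 0.457 to 1.72. Without values per sample, whether other neighbours in this order differ beyond the spread between samples could not be tested.

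**Figure D2:**
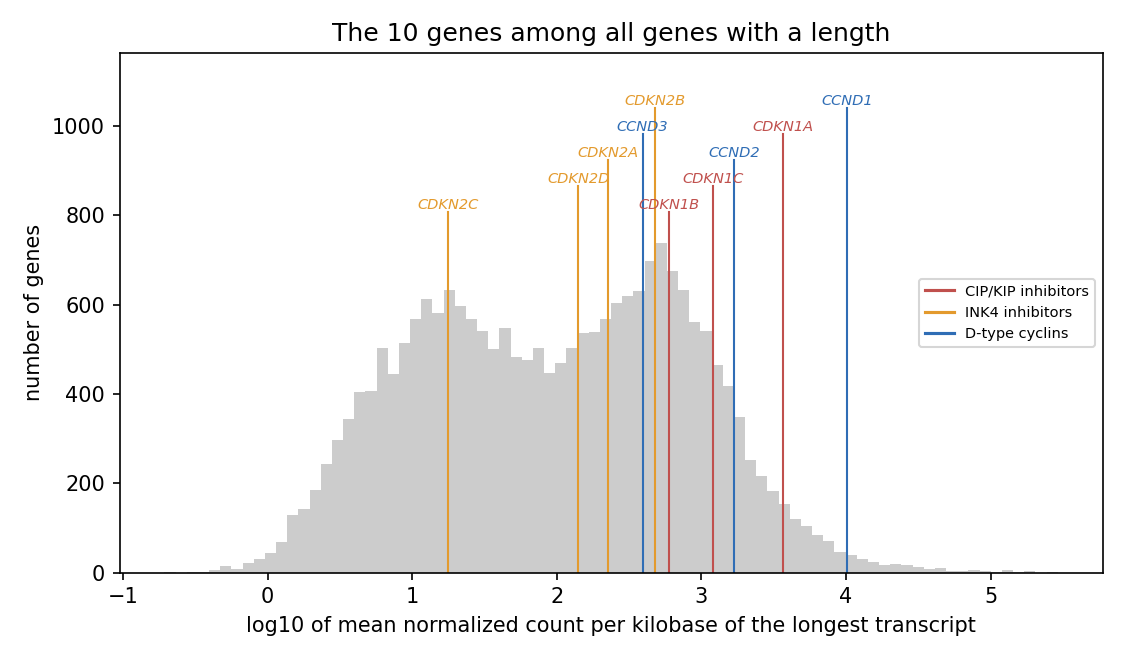
The histogram counts the 21861 genes with a length by the log10 of their mean normalized count per kilobase of the longest transcript, and coloured lines mark the 10 genes by class. The CIP/KIP inhibitors, D-type cyclins and *CDKN2B* stand in the higher of 2 peaks or to its right, *CDKN2A* and *CDKN2D* lie between the peaks or on the slope of the higher one, and *CDKN2C* is in the lower peak.

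In GENCODE 44, the annotation used here, 5 of the 10 genes have more than 1% of their exonic bases covered by an exon of another gene, on either strand. The authors counted on GENCODE 32, and whether it holds the same overlaps was not checked. The sources used here do not say whether counting used the strand, and the gene counting of STAR leaves out reads that fall on more than 1 gene. *CCND1* shares 497 exonic bases (10.4%) with *LTO1* on the opposite strand, whose own mean normalized count was 1412. *CDKN2A* shares 593 exonic bases (15.3%) with *CDKN2B-AS1*, an antisense long non-coding RNA whose mean normalized count was 74.9. The span of *CDKN2B-AS1* also covers *CDKN2B*, but no exonic base of *CDKN2B* is shared with it. *CDKN2C* shares 20.4% of its exonic bases with an unnamed antisense RNA gene, and *CDKN1A* 4.87% with *DINOL*, an antisense RNA with a mean normalized count of 7.14. *CCND2* shares 12.5% with an unnamed protein-coding gene on its own strand and 1.33% with an unnamed antisense RNA gene. It also shares 2.03% with *CCND2-AS1*, an antisense RNA with a mean normalized count of 35.7. None of the unnamed genes was among the 21944 genes analysed. Whether any reads of *CDKN2C* or *CCND2* were left out was not tested. Per kilobase of exonic sequence that no other gene covers, *CCND1* had a level of 10067, *CDKN2A* of 72.0 and *CDKN2C* of 21.4. Per kilobase of all exonic sequence, shared bases included, the levels were 9016, 61.0 and 17.1. *CCND1* stayed the highest and *CDKN2C* the lowest on this scale.

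The kinases and targets of these proteins were set beside them by means of 32 genes of the G1 and S phase pathway. Of the 32 genes, 26 lay above the median of all genes per kilobase, and their own median was 450.6. This median of all genes includes genes that are not protein-coding. Among protein-coding genes alone, *CDKN2A* at 225.3 lay at the 46.3 percentile. *FBXO31* at 186.0, *CDK6* at 163.4 and *RBL1* at 107.4, which are among the 26, were thus below the median of protein-coding genes. How many of the 32 lay above that median was not counted. Among the 42 genes of both lists, *CCND1* ranked 1, *CDKN1A* 2, *CCND2* 4, *CDKN1C* 7 and *CDKN2C* 41. The other members ranked 15 (*CDKN1B*), 19 (*CDKN2B*), 25 (*CCND3*), 31 (*CDKN2A*) and 34 (*CDKN2D*). These ranks are for the longest transcript and moved with other lengths. Per kilobase of all exons, *CCND2* at 1436 was above *CDK4* at 1324. With the Ensembl canonical transcript, *CDKN2C* at 51.7 was above *FBXO4* at 41.4 and *CCNA1* at 33.3. The partner kinase *CDK4* had a level per kilobase of 2196 and *CDK6* of 163.4, a 13.4-fold gap that ran from 8.50 to 15.1 over the 4 lengths. The D-type cyclins summed to 5.17-fold the level of *CDK4* and *CDK6* together, with a range from 4.70 to 7.18. Without *CCND1* this ratio was 0.876, with a range from 0.723 to 1.08. *CDK4* and *CDK6* together were 2.74-fold above the sum of the 4 INK4 genes, with a range from 2.21 to 3.69. That sum takes *CDKN2A* whole, with p16 and ARF transcripts not told apart. *CDK2*, the kinase of late G1 and S phase, had a level per kilobase of 1001. The CIP/KIP inhibitors summed to 5.47-fold the level of *CDK2*, with a range from 5.15 to 5.98, and *CDKN1A* alone was 3.67-fold above it. These are ratios of RNA and say nothing of the amounts of protein.

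Of the other cyclins of G1 and S phase, *CCNA2* was the highest with a level per kilobase of 465.1 and *CCNA1*, known from the germ line, the lowest with 32.8. *RB1*, the gene of the retinoblastoma protein, had a level per kilobase of 654.5 and its relative *RBL1* of 107.4. In the class of E2F factors and their dimer partners, levels per kilobase ran from 2.64 for *E2F2* to 1615 for the partner *TFDP1*. Among 11 regulators, *MDM2*, a ubiquitin ligase, was the highest with a level per kilobase of 961.8, and *FBXO4*, linked to the turnover of cyclin D1, the lowest with 39.6. The highest gene of these last 2 classes, and of *RB1* and its relatives, depended on the length used. With the Ensembl canonical transcript, *E2F4* at 1751 was above *TFDP1*, and *CKS1B* at 1133 was above *MDM2*. *RBL2*, another relative of *RB1*, was at 685.2 with that transcript and *RB1* at 654.5.

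**Figure D3:**
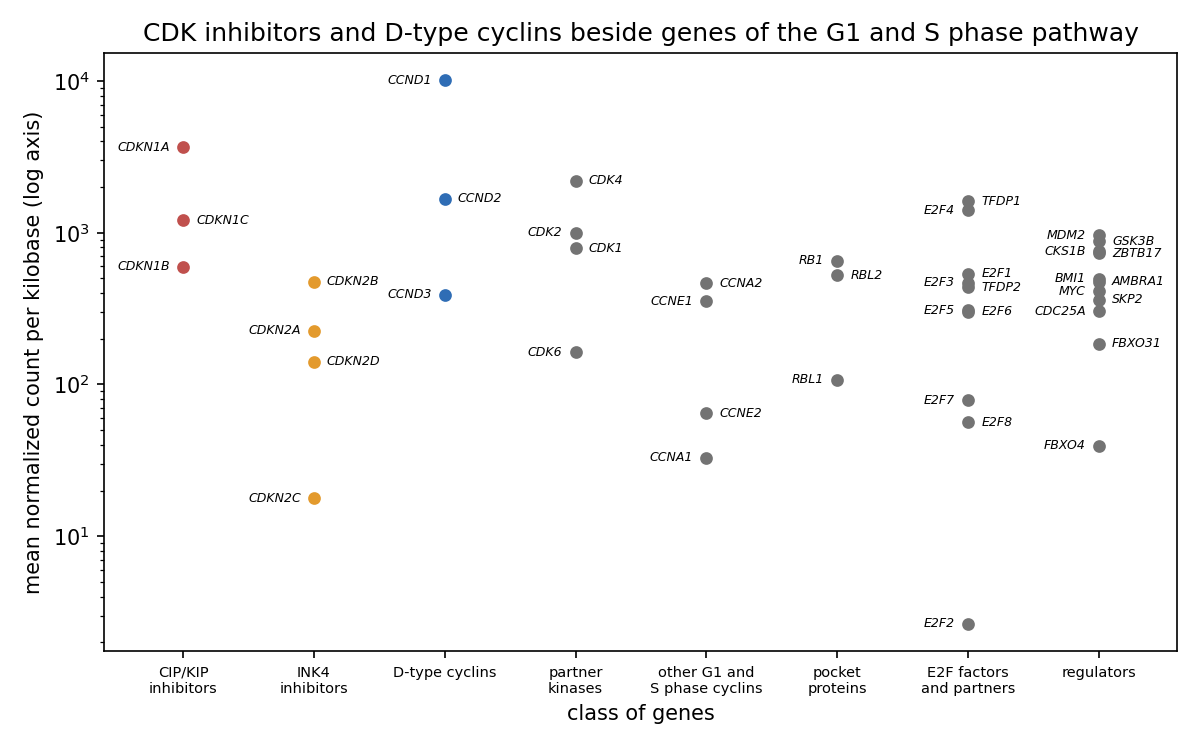
The vertical log axis gives the mean normalized count per kilobase of the longest transcript for 42 genes, 1 point per gene, in columns by class with the CDK inhibitors and D-type cyclins in colour. *CCND1* at 10129 and *CDKN1A* at 3673 are above the 32 pathway genes shown, and of these *E2F2* alone lies below *CDKN2C*.

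The labelled cell type was checked against markers. Of 9 pancreatic progenitor markers, 8 were above the median of all genes, with levels per kilobase of 40743 for *GP2*, 4969 for *PDX1*, 5259 for *SOX9* and 875.5 for *NKX6-1*, and *PTF1A* at 8.10 was below it. Of 7 endocrine markers, 3 were above it, among them *NEUROG3* at 289.0 and *CHGA*, the highest, at 2172. The highest liver marker was *AFP* at 10996, above *PDX1* and *SOX9*, beside *ALB* at 280.0. Of 2 liver genes, 2 were above the median. *CDX2*, the 1 intestinal marker, was above it at 1031 and also above *NKX6-1*. For mesenchyme *COL1A1* was the highest at 691.7, with 2 of 4 mesenchymal genes above the median. *TUBB3* led the nerve cell markers at 61.5 and *PECAM1* the endothelial markers at 11.0. None of these 2 nerve cell and 3 endothelial genes was above the median. The median used for the markers is that of all genes, protein-coding or not. Among protein-coding genes alone, *CDKN2A* at 225.3 lay at the 46.3 percentile. *INSM1* at 198.7 and *PDGFRA* at 136.0, counted above as endocrine and mesenchymal genes over the median, were thus below the median of protein-coding genes. The other markers were not placed among protein-coding genes. *POU5F1*, *NANOG* and *PTPRC* were looked for but were not among the 21944 genes analysed, so no level is given for them. In pooled bulk RNA, fewer cells of a type and less RNA per cell cannot be told apart, and the part that each cell type had in the levels of the 10 genes was not tested.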

How the data were processed

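RNA was sequenced in 18 samples, 3 for each matrix (LN411 or FN) at 3, 6 and 24 h. According to the paper and the submitters' processing notes, the authors aligned reads with STAR 2.7.2d to hg38 (GRCh38), counted reads per gene on GENCODE 32 and normalized with DESeq2 1.34.0. The deposited table holds, for 21944 genes, a mean normalized count, a signal that the authors averaged over samples after scaling by size factors and did not divide by length. Its other 5 numeric columns hold the authors' own comparison of LN411 with FN (fold change, standard error, statistic, p-value and adjusted p-value) and were not used. No column held a value per sample, so the edgeR test planned for such values was not run.

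Gene positions, exons and lengths came from GENCODE 44 on GRCh38, matched by Ensembl identifier for 21861 genes (99.6%). Positions are on the assembly the authors used, and annotations of the releases may differ. Levels were divided by the longest transcript, in units of 1000 bases. A percentile is the percent of genes with a lower level. The genes, gene lists and named genes were chosen with earlier results of these data known: all 10 genes, the highest and lowest of each pathway class with *CDK4*, *CDK6*, *CDK2* and *RB1*, and *PDX1*, *NKX6-1*, *SOX9*, *NEUROG3* and the highest marker of each other list. *GP2* and *ALB* were added after their values were seen. Of the pathway list, 1 gene was left out of all counts and is not reported here. Functions for length, overlap and percentile were tested on simulated data. Python 3.11.15, pandas 2.3.3, numpy 2.4.6, scipy 1.17.1 and matplotlib 3.10.9 were used.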

Additional observations from a re-analysis of the deposited data

How the results depend on the processing

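No paired analysis was possible because no value per sample was analysed; fits of LN411 against FN, with another normalization, without a filter, with the replicate block or without single replicates, were not run for the same reason. With all annotated exons as length, 6 of the 10 genes kept their rank per kilobase, and 6 with exonic bases free of other genes, a length chosen after seeing the data; the 4 genes that moved were *CDKN1B*, *CDKN2B*, *CDKN2A* and *CDKN2D*. All 10 kept it with the Ensembl canonical transcript. The level per kilobase moved by over 1.5 times for 3, 3 and 2 genes with these lengths. The median percentile of the 10 genes was 75.2 among all genes, 65.4 among protein-coding genes, 70.9 among genes listed at all 3 times and 75.0 without division by length. With lengths added after seeing the data it was 74.1 (all exons), 77.6 (canonical transcript) and 72.5 (exonic bases free of other genes). Over these settings the percentile ran from 98.7 to 99.5 for *CCND1*, from 94.2 to 97.0 for *CDKN1A* and from 16.7 to 40.1 for *CDKN2C*. It crossed the median for *CDKN2A*, from 46.3 to 61.0, and for *CDKN2D*, from 38.2 to 57.8. What the pooled means limit is any statement on a time, a matrix or an error.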
